A study of Mus musculus with 8 samples.

Results

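Liver transcripts of 8 genes that carry out or control the breakdown of triacylglycerol were followed: Pnpla2, G0s2, Abhd5, Lipe, Mgll, Lipa, Lipc and Lpl. They were chosen by symbol, as lipases and their regulators, and are 8 of the 38283 genes in the table of FPKM values (fragments of a gene, scaled to the length of its transcript and the size of the library). All 8 passed the filter that left 11634 genes for testing, an FPKM above 1 in at least 1 library, and all 8 were above 1 in every library. The livers came from male C57BL/6 mice, and every animal carried floxed Rorα alleles, with exons 4 and 5 between the loxP sites. RORα f/f mice were the littermate controls, and RORα LKO mice also carried Cre under the albumin promoter, which acts in hepatocytes. Deletion in the other cells of the liver was not measured here. From 8 weeks of age the mice were fed a control diet (CD) or a high-fat diet with 60% of its energy from fat (HFD) for 10 weeks. Each of the 4 groups had 2 libraries, with the livers of 2 mice pooled in each, so that p-values measure the spread between pools.

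Stored triacylglycerol is taken apart in steps. On the lipid droplet, ATGL (the product of Pnpla2) removes a fatty acid, hormone-sensitive lipase (Lipe) acts on the diacylglycerol that remains, and monoacylglycerol lipase (Mgll) releases the last fatty acid. ABHD5, also called CGI-58, activates ATGL, and G0S2 binds and inhibits it. A separate route runs through the lysosome, where the acid lipase made from Lipa hydrolyses triacylglycerol and cholesteryl esters, while hepatic lipase (Lipc) and lipoprotein lipase (Lpl) act outside the cell on lipoproteins in the blood. In the healthy adult liver Lpl is low and hepatic lipase comes from hepatocytes. RORα is a nuclear receptor that binds AGGTCA motifs and represses or activates nearby genes.

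As a check of the labels, Rora itself was read at 8.85 and 8.59 FPKM in the CD RORα f/f libraries and at 7.96 and 8.18 FPKM in the CD RORα LKO libraries. On the HFD it was read at 7.56 and 7.86 FPKM under the f/f label and at 7.30 and 8.02 FPKM under the LKO label. The groups did not overlap on the CD and did on the HFD, and averaged over both diets the log2 difference came to −0.04 (adjusted p = 0.764 by limma). A value for the whole gene does not isolate exons 4 and 5, and the directions below rest on the labels: libraries are called LKO-labelled or f/f-labelled after them. The 8 libraries had 10587 to 10706 genes above 1 FPKM, with 29.7% to 43.7% of all FPKM in the 10 highest genes, and Spearman's rho was 0.969 to 0.975 within groups and 0.958 to 0.974 between them. Of 7 hepatocyte markers, 6 were at 102 FPKM or more in every library, whereas Alb was listed at 0 in 4 libraries and reached 30900 FPKM in another. Summed markers of endothelial cells were at 36.6 to 55.6 FPKM and those of bile duct cells at 17.8 to 31.2 FPKM. Of the bile duct markers, Spp1 alone was at 15.9 to 28.9 FPKM, and Krt19, Epcam and Sox9 were at 1.71 FPKM or lower. Of the exocrine pancreas, 4 of 5 markers were at 0 in all 8 libraries (the fifth, Cela1, was at 4.62 to 14.0 FPKM).

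The 8 genes span a wide range of levels in these livers. Averaged over the 8 libraries, G0s2 was the highest at 195 FPKM, followed by Lipa at 76.8, Lipc at 65.2, Pnpla2 at 54.0 FPKM and Mgll slightly lower. Abhd5 at 11.8, Lipe at 7.12 and Lpl at 2.17 FPKM made up the low end. FPKM is scaled to transcript length, so these levels can be set beside each other. G0s2 was above the other 7 genes in every library and stood between the 95.9 and 97.8 percentile of the genes tested, so that the transcript of the inhibitor was 2.21 to 4.94 times that of the enzyme it inhibits. Lpl stood between the 12.8 and 34.7 percentile. Neighbours in this order were separated in all 8 libraries except for Lipc and Pnpla2, where Lipc was higher in 6 of 8, and Pnpla2 and Mgll, where Pnpla2 was higher in 4 of 8. On the CD Pnpla2 was above Mgll in the group means, and on the HFD Mgll was above Pnpla2, under both genotype labels. Lipc varied least, with its highest library 1.16 times its lowest, and Lpl most, with a ratio of 2.96 between them.

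**Figure D1:**
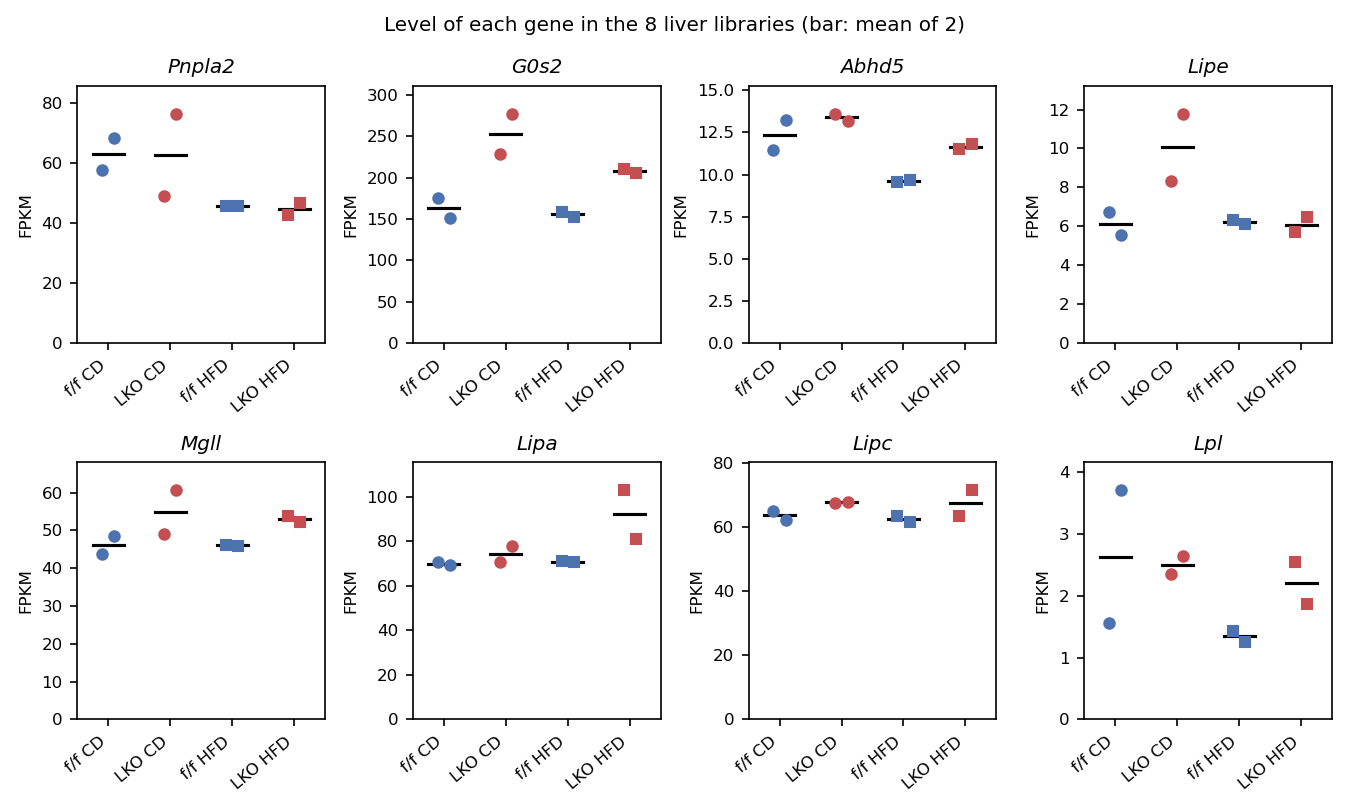
FPKM (vertical axis, from 0, a scale of its own for each gene) of the 8 genes in the 4 groups, with 1 point per library, blue for f/f-labelled and red for LKO-labelled livers, circles for CD and squares for HFD, and a bar at the mean of the 2 libraries. The red points of G0s2 sit above the blue points on both diets, those of Lipe do so on the CD and overlap them on the HFD, and both HFD groups of Pnpla2 sit below both CD groups.

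In the GENCODE M21 annotation of GRCm38, Pnpla2 (ENSMUSG00000025509) lies at chr7:141455198-141460743 on the plus strand and G0s2 (ENSMUSG00000009633), a gene of 2 exons, at chr1:193272161-193273217 on the minus strand. Abhd5 (ENSMUSG00000032540) lies at chr9:122351608-122381524 (plus), Lipe (ENSMUSG00000003123) at chr7:25379527-25398710 (minus) and Mgll (ENSMUSG00000033174) at chr6:88724412-88828360 (plus). Lipa (ENSMUSG00000024781) lies at chr19:34492318-34527474 (minus), Lipc (ENSMUSG00000032207) at chr9:70798128-70952226 (minus) and Lpl (ENSMUSG00000015568) at chr8:68880491-68907448 (plus). The library kit does not mark strand, so reads where a member overlaps a gene of the other strand cannot be told apart. G0s2 lies inside the span of Lamb3, which reached 2.72 FPKM at most. Antisense genes also overlap Abhd5 (A730085K08Rik, up to 2.90 FPKM), Lipe (4732471J01Rik, up to 0.485 FPKM) and Mgll (Gm26588, up to 6.25 FPKM), each below its member in every library. Lipc holds a pseudogene on the other strand, Gm3436, at up to 0.202 FPKM.

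The 250 bases before the annotated starts were read for G0s2 and Pnpla2, the inhibitor and the enzyme, and for Abhd5 and the inner start of Lipc, the windows among the members that hold the receptor motif. The sequences are RefSeq promoters on GRCm38.p6, printed 5′ to 3′ on the strand of the gene, with the start site after the last base. They cover G0s2 (chr1:193273189-193273438, minus), Pnpla2 (chr7:141454938-141455187, plus), Abhd5 (chr9:122351366-122351615, plus) and Lipc (chr9:70934809-70935058, minus). Capitals mark AGGTCA on either strand (read as TGACCT on the other), and in Lipc also a direct repeat of that motif spaced by 1 base with at most 2 of 12 letters changed.
G0s2: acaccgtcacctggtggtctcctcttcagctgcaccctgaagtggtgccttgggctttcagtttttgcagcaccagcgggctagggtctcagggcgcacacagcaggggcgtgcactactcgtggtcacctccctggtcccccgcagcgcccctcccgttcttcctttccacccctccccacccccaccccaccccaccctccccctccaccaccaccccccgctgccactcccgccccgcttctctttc
Pnpla2: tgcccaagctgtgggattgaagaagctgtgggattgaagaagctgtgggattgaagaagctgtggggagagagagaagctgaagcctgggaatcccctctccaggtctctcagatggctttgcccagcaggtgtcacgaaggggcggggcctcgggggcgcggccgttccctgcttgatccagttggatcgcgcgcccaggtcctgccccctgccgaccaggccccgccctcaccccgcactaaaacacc
Abhd5: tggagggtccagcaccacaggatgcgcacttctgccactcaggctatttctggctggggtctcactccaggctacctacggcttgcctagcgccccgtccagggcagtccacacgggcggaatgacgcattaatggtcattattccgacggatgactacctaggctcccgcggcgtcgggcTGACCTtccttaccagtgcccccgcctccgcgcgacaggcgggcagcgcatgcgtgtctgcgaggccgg
Lipc: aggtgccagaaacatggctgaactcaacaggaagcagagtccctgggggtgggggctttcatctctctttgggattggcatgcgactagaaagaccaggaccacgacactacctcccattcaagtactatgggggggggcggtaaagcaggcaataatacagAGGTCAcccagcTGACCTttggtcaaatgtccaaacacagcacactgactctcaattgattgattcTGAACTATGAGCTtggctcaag
The letters searched were AGGTCA and GGGTCA on both strands, in 10 windows of 7 members, Lpl having no entry in the table. Abhd5 held 1 match, at −69 to −64 from the start, and the inner Lipc start held 2, at −88 to −83 and −76 to −71, beside the direct repeat at −22 to −10. The windows of G0s2, Pnpla2, Mgll, Lipe and Lipa and the outer start of Lipc held none. Of the 32851 windows of all genes, 23.8% held AGGTCA or GGGTCA and 3.24% the direct repeat. A match of letters is not a bound site, and the lack of one concerns these 250 bases.

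The genotype comparison asked how the livers differed where Rorα was targeted. G0s2, the ATGL inhibitor, was higher under the LKO label on both diets, and Pnpla2, the enzyme itself, differed between the labels by −0.01 on the CD and 0.00 on the HFD on the log2 scale. No member passed an adjusted p under 0.05 on either diet, which 0.0172% of all genes did on the CD and 0.043% on the HFD (limma, Benjamini-Hochberg over 11634 genes). At an unadjusted p under 0.05, 3 of 8 members were counted on the CD (G0s2, Lipe and Mgll, against 12.3% of all genes) and 3 of 8 on the HFD (G0s2, Abhd5 and Lipa, against 9.58%), all of them higher under the LKO label. The median difference of the 8 members was 0.12 on the CD and 0.25 on the HFD on the log2 scale, against −0.0009 and −0.0007 for all genes.

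**Figure D2:**
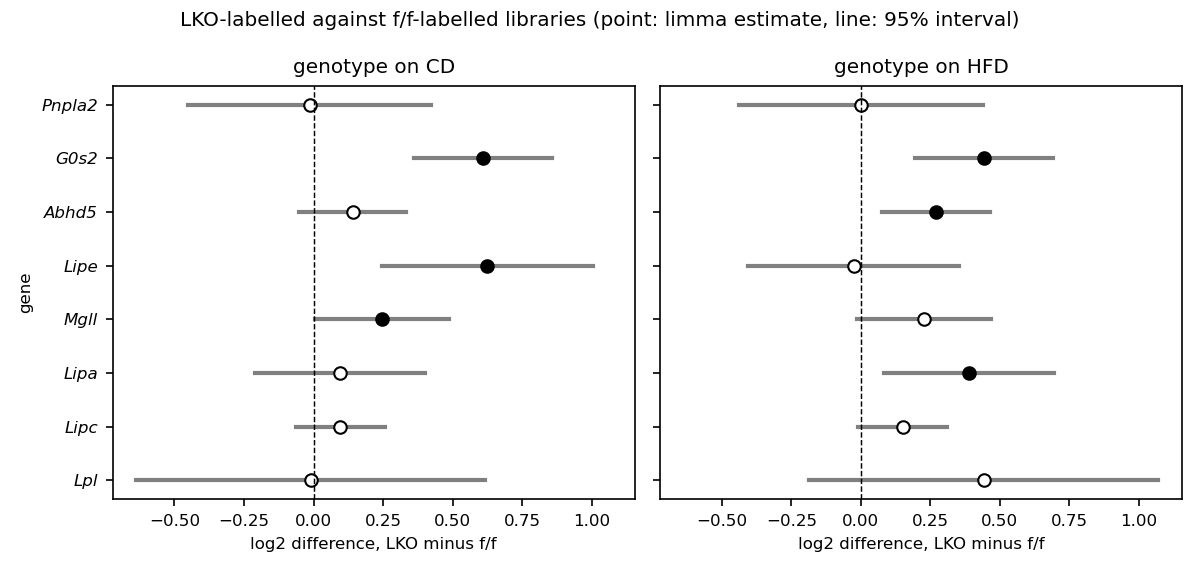
LKO-labelled less f/f-labelled libraries (horizontal axis, log2 of quantile-normalized FPKM + 1) for the 8 genes on the CD (left) and the HFD (right), with the limma estimate as a point and its 95% interval as a line. Points are filled where the interval leaves out 0, which held for G0s2, Lipe and Mgll on the CD and for G0s2, Abhd5 and Lipa on the HFD.

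G0s2 was read at 175 and 151 FPKM in the CD f/f-labelled libraries and at 228 and 277 FPKM in the CD LKO-labelled libraries. HFD values were 158 and 153 FPKM under the f/f label and 210 and 206 FPKM under the LKO label. All 4 LKO-labelled libraries lay above all 4 f/f-labelled libraries, whatever the diet. The log2 difference was 0.61 (SE 0.10, 95% interval 0.36 to 0.86, limma adjusted p = 0.154) on the CD and 0.44 (SE 0.10, 95% interval 0.19 to 0.69, limma adjusted p = 0.268) on the HFD. Averaged over both diets it was 0.53 (SE 0.07), a 1.44-fold higher level with a 95% interval of 1.27 to 1.63, and the adjusted p by limma was 0.0746. The lowest limma adjusted p among all the alternatives was 0.0361, with the filter set to an FPKM above 1 in all 8 libraries. With the main filter the difference over both diets ran from 0.46 to 0.59 when single libraries were left out.

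Pnpla2 was read at 57.7 and 68.2 FPKM in the CD f/f-labelled libraries and at 49.0 and 76.5 FPKM in the CD LKO-labelled libraries. In HFD livers the values were 45.7 and 45.6 FPKM under the f/f label and 42.6 and 46.8 FPKM under the LKO label. The labels overlapped on both diets. On the log2 scale the labels differed by −0.01 on the CD (SE 0.18, 95% interval −0.45 to 0.42, limma adjusted p = 0.991) and 0.00 on the HFD (SE 0.18, 95% interval −0.44 to 0.44). Changes of either sign within these intervals were not excluded. Of the 2 CD LKO-labelled libraries, each decides the sign on that diet: the difference was −0.30 without replicate 2 and 0.28 without replicate 1.

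Set against the enzyme within each library, G0s2 transcripts were 3.04 and 2.21 times those of Pnpla2 in the CD f/f-labelled libraries and 4.66 and 3.63 times in the CD LKO-labelled libraries. On the HFD the ratio was 3.46 and 3.34 under the f/f label and 4.94 and 4.40 under the LKO label. The lowest LKO-labelled ratio, 3.63, was above the highest f/f-labelled ratio, 3.46. For the activator, Abhd5 relative to Pnpla2 was 0.198 and 0.194 against 0.278 and 0.173 on the CD, where the labels overlapped, and 0.209 and 0.213 against 0.270 and 0.252 on the HFD, where they did not (f/f first in each pair). These ratios were not tested.

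**Figure D3:**
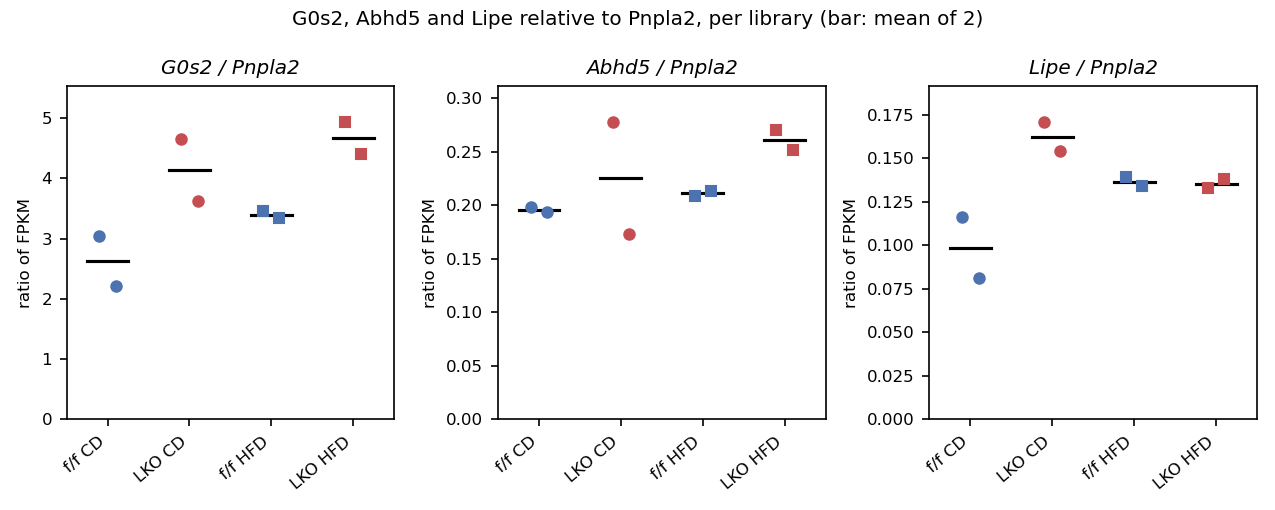
Ratio of the FPKM of G0s2 (left), Abhd5 (middle) and Lipe (right) to that of Pnpla2 in the same library (vertical axes, from 0), with 1 point per library in the 4 groups and a bar at the mean of 2. The 4 LKO-labelled points of G0s2 lie between 3.63 and 4.94 and the 4 f/f-labelled points between 2.21 and 3.46.

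Abhd5, the activator of ATGL, was read at 11.4 and 13.2 FPKM in the CD f/f-labelled libraries and at 13.6 and 13.2 FPKM in the CD LKO-labelled libraries. Its HFD values were 9.56 and 9.71 FPKM under the f/f label and 11.5 and 11.8 FPKM under the LKO label. The labels overlapped on the CD in FPKM, though not after quantile normalization, and stood apart on the HFD. The log2 difference was 0.14 (SE 0.08, limma adjusted p = 0.527) on the CD and 0.27 (SE 0.08, 95% interval 0.08 to 0.46, limma adjusted p = 0.355) on the HFD.

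Lipe, which encodes hormone-sensitive lipase, was read at 6.72 and 5.53 FPKM in the CD f/f-labelled libraries and at 8.35 and 11.8 FPKM in the CD LKO-labelled libraries. On the HFD the values were 6.34 and 6.09 FPKM under the f/f label and 5.68 and 6.46 FPKM under the LKO label. The CD LKO-labelled livers were thus the high ones, and the ranges of the other 3 groups overlapped. On the log2 scale the labels differed by 0.62 on the CD (SE 0.16, 95% interval 0.24 to 1.00, limma adjusted p = 0.239) and −0.03 on the HFD (SE 0.16, 95% interval −0.40 to 0.35, limma adjusted p = 0.980). The difference between these differences was −0.65 (SE 0.23, 95% interval −1.19 to −0.11), with an adjusted p of 0.558 by limma. Lipe was the only member counted at an unadjusted p under 0.05 in that test of genotype by diet, which 8.35% of all genes reached, and no member passed at an adjusted p, as 0.0344% of all genes did. Without CD LKO-labelled replicate 2, the difference between the labels on the CD was 0.40, and without replicate 1 it was 0.85.

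Because Lipe and Pnpla2 are abundant in fat cells, adipocyte markers were read in the same livers. Adipoq, Plin1, Lep and Retn, which define fat cells, were at 0.377 FPKM or lower in every library. The summed level of the 7 markers was 4.31 to 5.13 FPKM against 8.78 to 9.77 FPKM on the CD and 5.06 to 6.80 FPKM against 10.4 to 11.4 FPKM on the HFD (f/f label against LKO label). Only 2 of the 7 passed the filter on low values, Cfd (complement factor D) at 0.182 to 5.45 FPKM and Adrb3 (a beta-adrenergic receptor) at 3.82 to 8.19 FPKM. Both were higher under the LKO label on each diet (49.1% of all genes on either). The log2 differences were 0.91 and 0.66 on the CD and 1.63 and 0.22 on the HFD (limma adjusted p of 0.469, 0.212, 0.328 and 0.695). On the CD Cfd was at 0.182 and 0.483 FPKM under the f/f label and at 2.76 and 0.538 FPKM under the LKO label. On the HFD Adipoq was at 0.377 and 0.212 FPKM under the f/f label and listed at 0 under the LKO label. Cidea was there at 0 and 0.0851 against 0.377 and 0.393 FPKM. The part of adipocyte transcripts in the values of Lipe was not tested.

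Mgll, which encodes monoacylglycerol lipase, was read at 43.7 and 48.5 FPKM in the CD f/f-labelled libraries and at 48.9 and 60.7 FPKM in the CD LKO-labelled libraries. After HFD feeding it stood at 46.1 and 46.0 FPKM under the f/f label and at 53.8 and 52.1 FPKM under the LKO label. Every LKO-labelled library lay above every f/f-labelled library, by a narrow margin on the CD. The log2 difference was 0.25 (SE 0.10, 95% interval 0.00 to 0.49, limma adjusted p = 0.399) on the CD and 0.23 (SE 0.10, 95% interval −0.01 to 0.47, limma adjusted p = 0.552) on the HFD. Without CD LKO-labelled replicate 2 the CD difference was 0.12, and without replicate 1 it was 0.37.

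Lipa, the lysosomal acid lipase gene, was read at 70.7 and 69.3 FPKM in the CD f/f-labelled libraries and at 70.6 and 78.1 FPKM in the CD LKO-labelled libraries. On the HFD it was read at 71.1 and 70.7 FPKM under the f/f label and at 103 and 81.1 FPKM under the LKO label. The HFD LKO-labelled livers were above all others, and the CD groups overlapped in FPKM. On the log2 scale the labels differed by 0.39 on the HFD (SE 0.13, 95% interval 0.08 to 0.69, limma adjusted p = 0.393) and 0.095 on the CD (SE 0.13, limma adjusted p = 0.792). Without replicate 1 of the LKO label the HFD difference was 0.18, and without replicate 2 it was 0.59.

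Of the lipases that act on lipoproteins, Lipc was read at 65.0 and 62.1 FPKM in the CD f/f-labelled libraries and at 67.4 and 67.7 FPKM in the CD LKO-labelled libraries. HFD values were 63.2 and 61.6 FPKM under the f/f label and 63.4 and 71.4 FPKM under the LKO label. The labels did not overlap on either diet, by a narrow margin on the HFD, and the differences were small, 0.096 (SE 0.07, limma adjusted p = 0.589) on the CD and 0.15 (SE 0.07, 95% interval −0.01 to 0.31, limma adjusted p = 0.552) on the HFD on the log2 scale.

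Lpl was read at 1.56 and 3.71 FPKM in the CD f/f-labelled libraries and at 2.35 and 2.65 FPKM in the CD LKO-labelled libraries. In HFD livers the values were 1.43 and 1.25 FPKM under the f/f label and 2.55 and 1.87 FPKM under the LKO label. The labels overlapped on the CD, where the f/f-labelled pair held both the highest and the lowest value of the CD livers, and stood apart on the HFD. The log2 difference was −0.01 on the CD (SE 0.26, 95% interval −0.64 to 0.62, limma adjusted p = 0.999) and 0.44 on the HFD (SE 0.26, 95% interval −0.18 to 1.07, limma adjusted p = 0.644). Without CD f/f-labelled replicate 1 the CD difference was −0.43, and without replicate 2 it was 0.41. A pseudocount of 1 understates the changes of a gene this low: at a pseudocount of 0.1 the HFD difference was 0.66.

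Lpl and Lipa are also made by macrophages, so 7 macrophage and leukocyte markers (Adgre1, Clec4f, Cd68, Marco, Csf1r, Ptprc and Cd5l) were read beside them. Their summed level was 53.0 to 66.5 FPKM under the f/f label and 67.1 to 93.7 FPKM under the LKO label on the HFD. There 7 of 7 markers were higher under the LKO label (49.1% of all genes), 2 of them at an unadjusted p under 0.05 (9.58% of all genes in either direction). On the CD the sums were 67.6 to 90.4 FPKM and 67.2 to 69.1 FPKM, and 1 of 7 markers was higher under the LKO label (49.1% of all genes). The highest sum, 93.7 FPKM, was in the HFD LKO-labelled library with 103 FPKM of Lipa and 2.55 FPKM of Lpl. The next, 90.4 FPKM, was in the CD f/f-labelled library with 3.71 FPKM of Lpl, the highest value of that gene, and 69.3 FPKM of Lipa, the lowest of that gene. In whole liver, fewer cells of a type and less RNA per cell cannot be told apart, and the part of macrophages in these values was not tested.

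**Figure D4:**
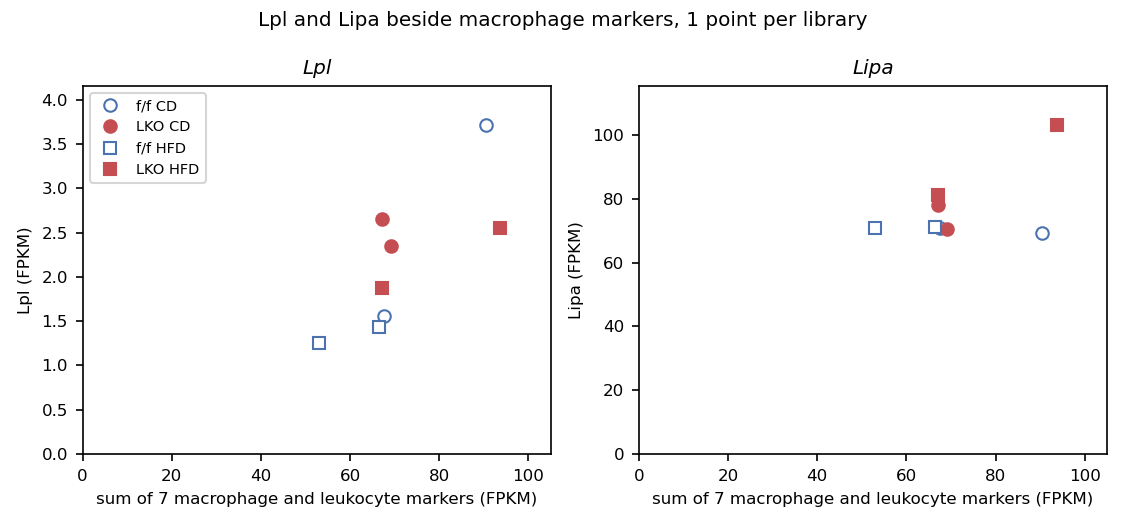
Lpl (left) and Lipa (right) in FPKM (vertical axes, from 0) against the summed FPKM of 7 macrophage and leukocyte markers (horizontal axis), with 1 point per library, open blue for f/f-labelled and filled red for LKO-labelled livers, circles for CD and squares for HFD. The libraries with sums of 90.4 and 93.7 FPKM hold the highest value of Lpl and the highest value of Lipa, respectively.

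Over both diets together, 0 of 8 members passed an adjusted p under 0.05 (0.103% of all genes did), and 6 of 8 had an unadjusted p under 0.05, against 13.5% of all genes. These were G0s2, Mgll (0.24, SE 0.07, limma adjusted p = 0.230), Abhd5 (0.21, SE 0.06, adjusted p = 0.204), Lipa (0.24, SE 0.09, adjusted p = 0.314), Lipe (0.30, SE 0.11, adjusted p = 0.316) and Lipc (0.12, SE 0.05, adjusted p = 0.327), all with a higher mean under the LKO label. Leaving out any 1 library gave a count of 3 or 4 of 8, with 3 without CD LKO-labelled replicate 2 and without HFD f/f-labelled replicate 2. Pnpla2 (−0.01, SE 0.13) and Lpl (0.22, SE 0.19) were not among them. After quantile normalization the libraries of the labels did not overlap for 6 of 8 members on the CD (43.0% of all genes) and for 6 of 8 on the HFD (42.2%). For 5 members, G0s2, Abhd5, Mgll, Lipa and Lipc, both LKO-labelled libraries lay above both f/f-labelled libraries on each diet, which 6.28% of all genes did. In FPKM as deposited this held for G0s2, Mgll and Lipc. After normalization all 4 LKO-labelled libraries lay apart from all 4 f/f-labelled libraries for 3 of 8 members, G0s2, Mgll and Lipc, against 4.84% of all genes. In FPKM as deposited those of Lipc overlapped. The comparisons over both diets and on each diet share the same libraries and are not independent of each other.

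The diet comparison asked how 10 weeks of HFD feeding moved the same transcripts. Pnpla2 and Abhd5, the enzyme and its activator, had lower means on the HFD under both labels, and so did G0s2: 163 ± 17.4 FPKM on the CD and 155 ± 3.94 FPKM on the HFD in f/f-labelled livers, and 253 ± 34.8 and 208 ± 3.22 FPKM in LKO-labelled livers (SD, n = 2). For G0s2 the normalized log2 difference was 0.01 under the f/f label (SE 0.10) and −0.16 under the LKO label (SE 0.10, limma adjusted p = 0.426). Lipe had a lower mean on the HFD in LKO-labelled livers, and Lipa a higher one. No member passed an adjusted p under 0.05 in f/f-labelled livers (1.33% of all genes), in LKO-labelled livers (3.02%) or over both (9.89%, limma). At an unadjusted p under 0.05 the count was 1 of 8 in f/f-labelled livers (Abhd5, against 19.2% of all genes), 2 of 8 in LKO-labelled livers (Lipa and Lipe, against 21.3%) and 4 of 8 over both (Abhd5, Lipa, Lipe and Pnpla2, against 27.9%). Within each label these counts are near or below the shares of all genes.

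**Figure D5:**
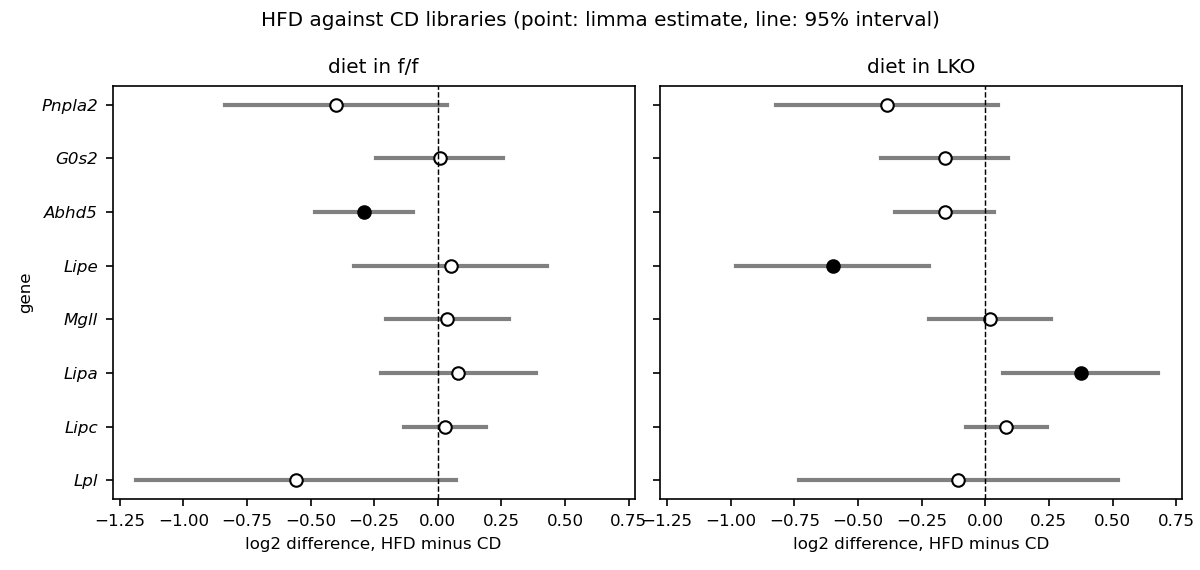
Difference between HFD and CD libraries (horizontal axis, log2 of quantile-normalized FPKM + 1) for the 8 genes in f/f-labelled (left) and LKO-labelled (right) livers, with the limma estimate as a point and its 95% interval as a line. Points are filled where the interval leaves out 0, which held for Abhd5 on the left and for Lipe and Lipa on the right.

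For Pnpla2 all 4 HFD libraries, at 42.6 to 46.8 FPKM, lay below all 4 CD libraries, at 49.0 to 76.5 FPKM. It was the only member without overlap between the diets over both labels, which 16.7% of all genes reached. The log2 difference over both labels was −0.39 (SE 0.13), a level 0.761 times that on the CD with a 95% interval of 0.615 to 0.943, and its adjusted p by limma was 0.105. It was −0.40 in f/f-labelled livers (adjusted p = 0.297) and −0.39 in LKO-labelled livers (adjusted p = 0.288). Without CD LKO-labelled replicate 1 the difference over both labels was −0.54, and without replicate 2 it was −0.25.

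Abhd5 had an adjusted p of 0.0577 by limma over both labels, the lowest of the 8 members, with a log2 difference of −0.22 (SE 0.06, 95% interval −0.36 to −0.09). It was −0.29 in f/f-labelled livers (adjusted p = 0.134) and −0.16 in LKO-labelled livers (adjusted p = 0.319), and the diets did not overlap under either label. The lowest limma adjusted p over both labels among all the alternatives was 0.0420, with no normalization.

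Lipe in LKO-labelled livers was lower on the HFD, at 5.68 and 6.46 FPKM against 8.35 and 11.8 FPKM, a log2 difference of −0.60 (SE 0.16, 95% interval −0.98 to −0.22, limma adjusted p = 0.0973). In f/f-labelled livers the difference was 0.05 (SE 0.16). The test of genotype by diet above is also the test of this contrast, and it did not pass. Lipa went the other way in LKO-labelled livers, by 0.37 (SE 0.13, adjusted p = 0.163), against 0.08 (SE 0.13) in f/f-labelled livers, with a difference between the labels of 0.29 (SE 0.18, adjusted p = 0.681). Lpl was at 1.25 and 1.43 FPKM on the HFD against 1.56 and 3.71 FPKM on the CD in f/f-labelled livers, where its log2 difference was −0.56 (SE 0.26, adjusted p = 0.307). Mgll and Lipc differed between the diets by at most 0.08 on the log2 scale under either label. The libraries of the diets did not overlap for 4 of 8 members in f/f-labelled livers (50.3% of all genes) and for 5 of 8 in LKO-labelled livers (52.9%).

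The sum of the stellate cell markers moved with the diet: it was 36.2 to 57.5 FPKM on the CD and 66.7 to 91.4 FPKM on the HFD. Most of it was Dcn, at 26.4 to 45.3 FPKM on the CD and 52.5 to 72.2 FPKM on the HFD. Over both labels 4 of 5 markers were higher on the HFD, 3 of them (Dcn, Reln and Lrat) at an unadjusted p under 0.05. The fifth, Col1a1, differed by −0.13 on the log2 scale. Of all genes, 52.7% were higher on the HFD over both labels, and 27.9% had an unadjusted p under 0.05 in either direction. Of the macrophage and leukocyte markers, 7 of 7 were higher on the HFD in LKO-labelled livers (51.4% of all genes) and 0 of 7 in f/f-labelled livers (52.1%). Endothelial markers summed to 36.6 to 47.9 FPKM on the CD and 44.3 to 55.6 FPKM on the HFD. Over both labels 6 of 6 were higher on the HFD, and 2 of them had an unadjusted p under 0.05, near the 27.9% of all genes. Of the hepatocyte markers, 5 of 7 were higher on the HFD over both labels, with 3 higher and 1 lower at an unadjusted p under 0.05 (27.9% of all genes in either direction). The part of any of these in the diet differences was not tested.

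The genes that these lipases work with were read from 3 lists. The first held 20 partners of the extracellular lipases, all of them tested, such as the endothelial anchor Gpihbp1, the inhibitors Angptl4 and Angptl8, and the apolipoprotein cofactors. None of the 20 passed an adjusted p under 0.05 between the labels (limma), and 3 of 20 had an unadjusted p under 0.05 on the CD (12.3% of all genes) and 3 of 20 on the HFD (9.58%), each higher under the LKO label. Over both labels the list's median difference between HFD and CD was 0.10 against 0.01 for all genes. Vldlr, a lipoprotein receptor that works with Lpl, rose on the HFD by 1.13 on the log2 scale (SE 0.10, limma adjusted p = 0.0036), from 0.200 to 0.505 FPKM in the 4 CD libraries to 1.46 to 2.82 FPKM in the 4 HFD libraries. Vldlr passed the filter of an FPKM above 1 only through its HFD libraries, so its test is not independent of that difference. Cd36, the fatty acid transporter, was at 63.7 and 60.1 FPKM in the HFD LKO-labelled libraries, above the 15.3 to 29.3 FPKM of the other 6. Its difference between the labels on the HFD was 1.49 (SE 0.28, limma adjusted p = 0.215). The list's median difference between the labels was 0.14 on the CD and 0.12 on the HFD.

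Angptl8, which takes part in the inhibition of Lpl, was a partner whose order turned round with the diet. It was read at 13.0 and 9.56 FPKM in the CD f/f-labelled libraries and at 33.1 and 30.3 FPKM in the CD LKO-labelled libraries. Its HFD values were 21.0 and 22.4 FPKM under the f/f label and 17.5 and 17.9 FPKM under the LKO label. It rose on the HFD in f/f-labelled livers, by 0.93 (SE 0.13, limma adjusted p = 0.0380), and fell in LKO-labelled livers, by 0.78 on the log2 scale (SE 0.13, limma adjusted p = 0.0357). Between the labels the difference was 1.45 on the CD (limma adjusted p = 0.0575) and −0.26 on the HFD (adjusted p = 0.600), and the test of genotype by diet gave −1.70 (SE 0.19, adjusted p = 0.110). Leaving out 1 library at a time ended the call in f/f-labelled livers in 7 of 8 cases and that in LKO-labelled livers in 6 of 8.

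The second list held 27 partners of lipolysis inside the cell (droplet coats, kinase subunits, transcription factors), of which 24 were tested. Plin1 and Cidea were among those not tested. Between the labels 0 of 24 passed an adjusted p under 0.05 (limma), and 4 were higher and 3 lower at an unadjusted p under 0.05 on the CD (12.3% of all genes in either direction), and 5 higher and 1 lower on the HFD (9.58%). Cidec, a droplet protein, was at 1.96 and 2.24 FPKM against 5.67 and 10.8 FPKM on the CD and at 1.41 and 1.87 FPKM against 8.15 and 6.83 FPKM on the HFD, f/f label against LKO label. It was 2.83-fold higher under the LKO label on the CD (95% interval 1.85 to 4.34, limma adjusted p = 0.154) and 3.24-fold on the HFD (95% interval 2.11 to 4.96, limma adjusted p = 0.144), both on the scale of FPKM + 1. Foxo1, a transcription factor that induces Pnpla2 in other tissues, was at 17.7 and 18.3 FPKM under the f/f label and no higher than 9.39 FPKM under the LKO label on the CD, a difference of −0.88 (SE 0.10, limma adjusted p = 0.0757). With HFD feeding, 6 of 24 rose over both labels and 0 fell at an adjusted p under 0.05, which 9.89% of all genes passed in either direction. At an unadjusted p under 0.05 the counts were 7 higher and 3 lower, against 27.9% of all genes, and the list median was 0.08. Each of the 6 lost its call in 4 to 8 of the 8 fits that left out 1 library. Among the 6, Plin4, a droplet coat, rose by 1.83 in LKO-labelled livers (SE 0.21, limma adjusted p = 0.0184), from 2.59 and 3.77 FPKM to 12.1 and 14.2 FPKM, and differed by 0.23 (SE 0.21) in f/f-labelled livers. The test of that contrast gave 1.59 with an adjusted p of 0.439, and leaving out 1 library ended the call in LKO-labelled livers in 6 of 8 cases. The list's median difference between the labels was 0.06 on the CD and 0.08 on the HFD.

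The third list held 26 other lipases and esterases, of which 17 were tested. Those not tested were at under 1 FPKM in every library and included Pnpla3 and the pancreatic enzymes Pnlip and Cel. Between the labels 0 of 17 passed an adjusted p under 0.05 (limma). At an unadjusted p under 0.05, 0 were higher and 3 lower on the CD (12.3% of all genes in either direction). On the HFD 3 were higher and 0 lower (9.58%). Over both labels 0 of 17 rose on the HFD and 3 fell at an adjusted p under 0.05 (9.89% of all genes in either direction), with 1 higher and 6 lower at an unadjusted p under 0.05 (27.9%) and a list median of −0.09. Ddhd2, a lipase that acts on phospholipid and triacylglycerol, fell by 0.81 on the log2 scale (SE 0.09, limma adjusted p = 0.00606), from 9.83 to 12.5 FPKM in the 4 CD libraries to 5.49 to 6.20 FPKM in the 4 HFD libraries. Lipg, endothelial lipase and a relative of Lipc and Lpl, fell by 0.76 (SE 0.13, limma adjusted p = 0.0199), and Abhd6, which also hydrolyses monoacylglycerol, by 0.40 (SE 0.09, limma adjusted p = 0.0409). Lipg lost its call in 6 and Abhd6 in 7 of the 8 fits that left out 1 library, and Ddhd2 and Vldlr kept theirs in all 8. The list's median difference between the labels was −0.0014 on the CD and 0.16 on the HFD.

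The profiles most like those of the 3 members that varied most were read by Pearson's r over the 8 libraries, as a description. For G0s2 they were those of Gaa, the lysosomal alpha-glucosidase (r = 0.97), Adra1a, an adrenergic receptor (r = 0.96), and Mief2 (r = 0.96). For Lipe they were those of Nsun4 (r = 0.97), Gm26372 (r = 0.96), which was listed at 0 in 6 libraries, and Zfp574 (r = 0.95). For Lpl they were those of Ptdss2, a phosphatidylserine synthase (r = 0.95), Clint1 (r = 0.94) and Gm21974 (r = 0.94). All these points share the same 8 libraries, and each r is among the highest 3 of all the genes tested.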

How the data were processed

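RNA from 8 liver libraries, 2 per group, was sequenced. According to the methods, the authors trimmed reads with cutadapt, aligned them to GRCm38 with TopHat2 (version 2.0.7 per the submitters' processing notes) and used Cufflinks to estimate expression. The authors deposited FPKM per Ensembl gene, on a linear scale. No steps of whole reads were found among the low FPKM values, so the depth behind each value is unknown and no counting interval is given. An exact 0 in such a file can be a failed estimate, and a gene is said only to be listed at 0.

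The 11634 genes that exceeded 1 FPKM in some library were tested, on log2(FPKM + 1) values after quantile normalization. Differences are on this scale, which understates those of low genes. limma 3.58.1 in R 4.3.3 fitted 4 group means to the 8 libraries with a mean-variance trend (4 residual and 2.80 prior degrees of freedom), and p-values were adjusted by the Benjamini-Hochberg method over all genes within each of 7 comparisons. limma stands in place of the permutation of libraries that the authors used, which was not run. The fit was tested on simulated data. A 95% interval is that of the limma fit.

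Symbols and coordinates came from GENCODE M21 and promoters from RefSeq. The 8 members, the 3 lists of partners and the 7 marker lists (hepatocytes, adipocytes, macrophages and leukocytes, endothelial, stellate and bile duct cells, exocrine pancreas) were chosen with earlier results of these data known. Genes named from the 3 lists were those with an adjusted p under 0.05 and, for genotype on each diet and diet over both labels, those with the largest and smallest log2 difference among genes whose groups did not overlap; of these, the ones that bear on a member are given with values, and some genes of the lists are not reported here. Plin1, Cidea and the untested enzymes were named beside counts after their values were seen. The 3 members with the largest SD were compared with all genes by Pearson's r. The alternatives were no normalization, median centring, 0.1 as the pseudocount, a filter of FPKM above 1 in all 8 libraries, no filter, no trend, the 4 libraries of a comparison alone, the replicate number as a block, and each library left out in turn. Figures were drawn with matplotlib 3.10.9.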

Additional observations from a re-analysis of the deposited data

Results flagged for a closer look

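Among the members none met a rule for a closer look, and groups of 2 libraries are too small for a test of outlying samples. Of the 61 partner genes tested, 9 (14.8%, against 9.47% of all genes) had groups that did not overlap and lay in opposite orders on the diets or under the labels, and 4 of these were among the genes named by rule. For Angptl8 the genotype difference on the HFD less that on the CD came to −1.70 in log2 units (adjusted p = 0.110 by limma), and for Tfeb, a transcription factor of lysosomal genes, −0.63 (adjusted p = 0.439). For Foxo1 it was 0.74 (adjusted p = 0.453) and for Prkaca, a catalytic subunit of protein kinase A, 0.26 (adjusted p = 0.576). None of the 4 passed the adjusted threshold.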

How the results depend on the processing

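The 8 members' differences were recomputed under 8 other settings and with each of the 8 libraries left out, and as no member had passed the adjusted threshold none could be lost. Members newly past an adjusted p of 0.05 were 1 over both diets between the labels with FPKM above 1 in all 8 libraries (G0s2), and 1 for diet over both labels with no normalization (Abhd5). Leaving out 1 library gave 0 to 1 for diet over both labels, namely Pnpla2 without CD LKO-labelled replicate 1, Lipa without HFD LKO-labelled replicate 2 (adjusted p = 0.0462) and Abhd5 without CD f/f-labelled replicate 1. Counts at an unadjusted p under 0.05 for diet in f/f-labelled livers were 3 with FPKM above 1 in all 8 libraries and 2 with the 4 libraries alone, for diet in LKO-labelled livers 1 with the 4 libraries alone, and for diet over both labels 2 without the trend. The cause was not tested.

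Leaving out 1 library, the unadjusted counts ran from 1 to 4 for genotype on the HFD, 0 to 2 for genotype by diet, 3 to 4 for genotype over both diets, 1 to 2 for diet in f/f-labelled livers, 0 to 3 for diet in LKO-labelled livers and 1 to 3 for diet over both labels. Each library moved at least 1 of these counts by over 1.5 times. Where the groups were left with 1 library, it was assumed to vary like the others.

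The replicate numbers of the labels do not pair the libraries: deviations of same-numbered libraries correlated at −0.00371 to 0.149, and at −0.0611 to 0.0351 without genes listed at 0. With the replicate block, 0 members passed the adjusted threshold in every comparison, and the unadjusted count was 2 for diet in f/f-labelled livers and 2 for diet over both labels.

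Between the labels, signs changed under some alternative for Lpl and Pnpla2 on the CD and for Lipe and Pnpla2 on the HFD, all differences near 0 there. The depth of each library is unknown. Among the partner genes, alternatives chosen after seeing the data ended the call in 224 cases and kept it in 157. Ddhd2 and Vldlr for diet over both labels kept theirs in each alternative that tested them. The filter of FPKM above 1 in all 8 libraries left Vldlr out, so its call was not tried there.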
